A study of Caenorhabditis elegans with 8 samples.

Results

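Transcript levels of the subunits of the proteasome were examined in adult Caenorhabditis elegans that had been fasted, deprived of cholesterol, or both. The members were the genes whose symbol in the array annotation starts with pas-, pbs-, rpt- or rpn-, and each was represented by its brightest probe set with a single annotated symbol. This gave 33 of the 17118 genes measured. Of these, 14 code for the core particle (7 alpha subunits, pas, and 7 beta subunits, pbs) and 19 for the regulatory cap (6 ATPases, rpt, and 13 other subunits, rpn). The symbols alone decide membership.

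All worms were of the wild-type laboratory strain N2 and, in all groups, young adults were put on FUDR, a drug that blocks DNA synthesis and so keeps progeny from developing. The 4 groups were fasted and deprived of cholesterol, fed and deprived, fasted with cholesterol, and fed with cholesterol; the last 2 are called undeprived here. Deprivation began at hatching, and every sample was collected on day 4 of adulthood. The length of the fast is uncertain, since it is 24 h in the source names but 48 h, beginning on adult day 2, in the treatment protocol. Each group had 2 samples that the series calls independent replicates, so that 8 one-colour Affymetrix arrays of whole-worm RNA were compared. C. elegans cannot make sterols, so cholesterol is a nutrient for it, and the series asks how that nutrient bears on the response to fasting.

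The proteasome degrades proteins that carry ubiquitin chains. Its core is a barrel of stacked alpha and beta rings, in which the beta subunits pbs-1, pbs-2 and pbs-5 hold the caspase-like, trypsin-like and chymotrypsin-like active sites. The cap binds and deubiquitinates the substrate, unfolds it with its ring of ATPases and opens the gate formed by the alpha ring. When the proteasome is impaired, worms raise the transcripts of its subunits together through a form of the transcription factor SKN-1.

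Signals are the authors' RMA intensities on a linear scale, and differences are on the log2(signal + 1) scale with their standard errors (n = 2 arrays per group). A transcript is said to rise or fall where limma gave a Benjamini-Hochberg adjusted p under 0.05 over all 22548 probe sets. Array medians ran from 66.7 to 70.9. Across probe sets, r was 0.992 to 0.994 between replicate arrays and 0.972 to 0.992 between arrays of unlike groups. Because the RNA came from whole worms, fewer cells of a type and less RNA per cell cannot be told apart.

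Nearly all subunits had signals far above the array medians in every group. Apart from rpn-6.2 and rpt-6, whose signals did not exceed 541, every member had 1008 or more on all 8 arrays. The mean of the fed undeprived group was the lowest of the 4 for 29 of the 33 members, whereas that group was the lowest for 36.2% of all probe sets and for 26.2% of the 7516 probe sets with the highest mean signal (bright probe sets). The other lowest groups were fasted undeprived for 3 members and fed deprived for 1. All members share the same arrays, and for 21 of the 33 the lowest single value was on the first fed undeprived array. Fasted deprived worms had the highest group mean for 18 members. The matching shares of all probe sets were not counted for these 21 and 18 members. The bright probe sets as a whole had their highest median deviation from their own means, 0.09, on the second fasted deprived array.

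**Figure D1:**
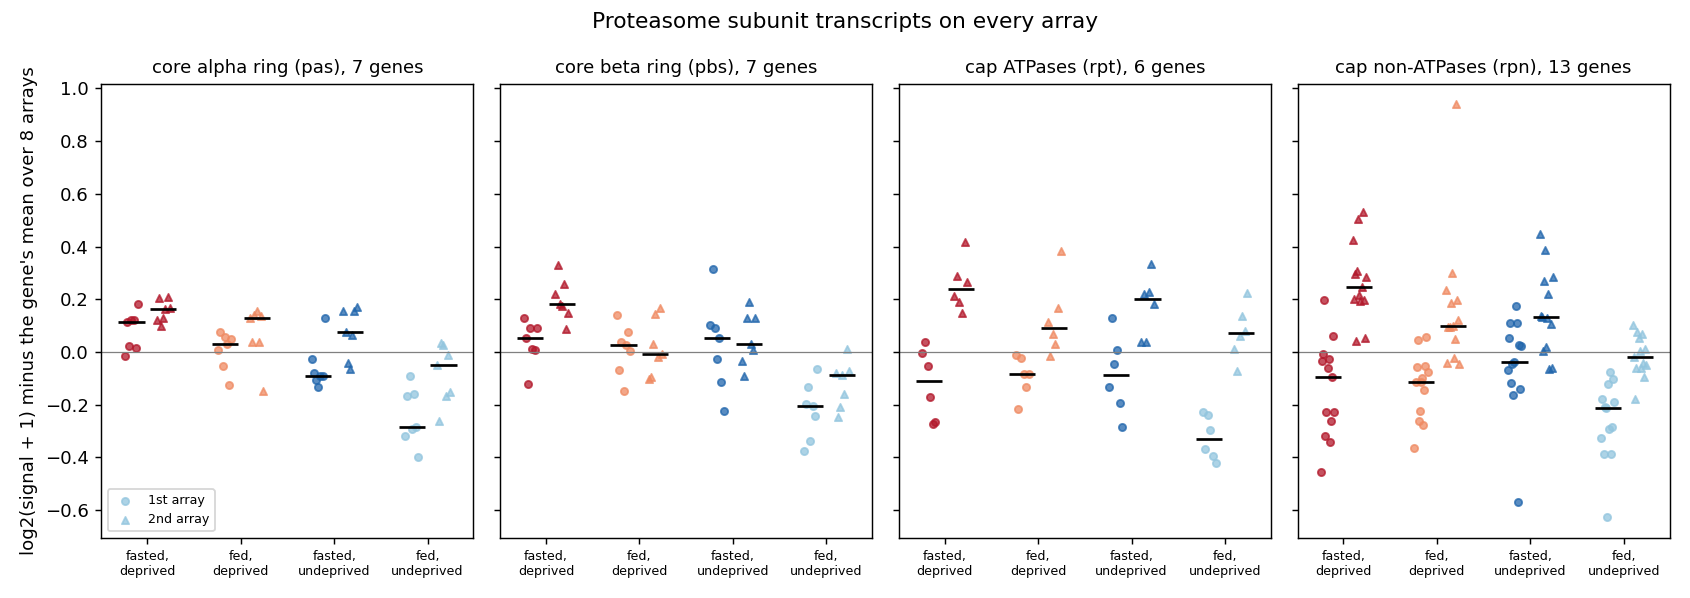
Deviation of each proteasome subunit transcript from its own mean over the 8 arrays (y axis, log2(signal + 1) units), for fasted deprived, fed deprived, fasted undeprived and fed undeprived worms (x axis), in one panel per subunit class. Points are arrays, with the first and second array of a group marked apart. In every class the first fed undeprived array has a median deviation of -0.20 or lower, while on the second it is -0.05 for the alpha, -0.09 for the beta, 0.07 for the ATPase and -0.02 for the other cap subunits.

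Fasting of worms given cholesterol gave small differences in proteasome transcripts, most of them above 0. The estimate was above 0 for 30 of 33 members, against 62.9% of all probe sets and 46.7% of the bright ones. The median difference was 0.22 for the core and 0.19 for the cap, where all probe sets had a median of 0.08 and the bright probe sets one of -0.03. Without the first fed undeprived array these medians were 0.13 and 0.03, and without the second 0.24 and 0.34. None of the 33 passed the adjusted threshold in limma, which 5.16% of all probe sets did. At an unadjusted p under 0.05, 4 members were higher and 0 lower, against 14% of all probe sets higher and 9.82% lower. Of the 7516 bright probe sets, 1029 (13.7%) were higher, out of 2282 at that threshold in either direction.

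The fasted and fed arrays of undeprived worms did not overlap for 16 of the 33 members, all 16 higher in fasted worms. Of all probe sets, 37.7% were separated upward in the same way and 19.3% downward, and of the bright probe sets 27.4% upward and 31.2% downward. By class, 4 of 7 alpha, 5 of 7 beta, 1 of 6 ATPase and 6 of 13 other cap transcripts were separated. The 95% interval of the difference lay within 1.5-fold in both directions for 16 of 33 members and within 2-fold for 30, limits that were chosen after the values were seen.

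The alpha ring subunit pas-7 had the largest difference. Its signal was 1680.3 and 1727 in fasted undeprived worms, against 1164 and 1382 in fed undeprived worms. Both fasted values were above both fed values, and the difference of 0.42 ± 0.12 was 1.34-fold with a 95% interval of 1.10 to 1.64 (limma, adjusted p = 0.0966). At the other end of the alpha class, pas-3 had signals of 2743 and 2863 in fasted undeprived worms, against 2771 and 3025 in fed undeprived worms. These overlap, with a difference of -0.05 ± 0.11 (limma, adjusted p = 0.828).

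The 3 catalytic beta subunits were all separated upward in fasted worms without passing the test. pbs-1, the caspase-like subunit, gave 2992 and 2721 in fasted undeprived worms, against 2143 and 2637 in fed undeprived worms. pbs-2, the trypsin-like subunit, gave 2414 and 1822 in fasted undeprived worms, against 1694 and 1636 in fed undeprived worms. For pbs-5, the chymotrypsin-like subunit, whose overexpression is known to raise proteasome activity in worms, the signals were 1751 and 1721 in fasted undeprived worms, against 1464 and 1511 in fed undeprived worms. In each, the lower fasted value stood above the higher fed value. The differences were 0.26 ± 0.14, 0.33 ± 0.16 and 0.22 ± 0.11, with limma adjusted p-values of 0.304, 0.249 and 0.276 in that order. The non-catalytic pbs-6 had 2792 and 3036 in fasted undeprived worms, against 2550.0 and 3044 in fed undeprived worms, and its arrays overlap.

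Among the cap ATPases, which unfold substrates and open the core's gate, rpt-2 had the largest difference. Its signal was 2909 and 3104 in fasted undeprived worms, against 2064 and 2532 in fed undeprived worms. The arrays did not overlap and the difference was 0.39 ± 0.15, or 1.31-fold with a 95% interval of 1.03 to 1.67 (limma, adjusted p = 0.163). The other 5 ATPases had differences of 0.05 to 0.23 and overlapping arrays. rpt-4 had signals of 3267 and 3808 in fasted undeprived worms, against 2653 and 3577 in fed undeprived worms. rpt-6, a dim member, had 282 and 391 in fasted undeprived worms, against 257 and 402 in fed undeprived worms. In both, the second fed array was above the first fasted one.

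The deubiquitinase of the cap, rpn-11, had signals of 2078 and 2112 in fasted undeprived worms, against 1469 and 1698 in fed undeprived worms. Its arrays were separated and its difference was 0.41 ± 0.14, or 1.33-fold with a 95% interval of 1.06 to 1.66 (limma, adjusted p = 0.137). Its non-catalytic partner rpn-8 gave 2838 and 3001 in fasted undeprived worms, against 2914 and 3152 in fed undeprived worms. The rpn-8 arrays overlap, with a difference of -0.05 ± 0.10 (limma, adjusted p = 0.768).

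The scaffold subunits rpn-1 and rpn-2 differed more between replicate arrays than between groups. rpn-2 had signals of 1676 and 2453 in fasted undeprived worms, against 1215 and 1947 in fed undeprived worms. rpn-1 had 1320.3 and 1888 in fasted undeprived worms, against 1104 and 1487 in fed undeprived worms. In each gene the second array of a group was far above the first, and the arrays overlap. The differences were 0.40 ± 0.34 for rpn-2 (limma, adjusted p = 0.504) and 0.30 ± 0.34 for rpn-1 (limma, adjusted p = 0.623).

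Of the ubiquitin receptors, rpn-10 had signals of 2378 and 2521 in fasted undeprived worms, against 2028 and 2264 in fed undeprived worms. For rpn-13 they were 1237 and 1541 in fasted undeprived worms, against 1103 and 1348 in fed undeprived worms. The rpn-10 arrays are separated and the rpn-13 arrays overlap. The differences were 0.19 ± 0.12 and 0.18 ± 0.25, with limma adjusted p-values of 0.372 and 0.690 in that order.

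The lid subunit rpn-6.1, whose overexpression raises proteasome activity and stress resistance in worms, had signals of 2257 and 2434 in fasted undeprived worms, against 1980.1 and 2190.2 in fed undeprived worms. Its arrays are separated, although the difference was only 0.17 ± 0.20 (limma, adjusted p = 0.641). Its paralogue rpn-6.2 had 189 and 269 in fasted undeprived worms, against 215 and 273 in fed undeprived worms. Those arrays overlap, and the difference of -0.10 ± 0.39 was the lowest among the members. The lid subunit rpn-5, named after its value was seen, was the remaining member with an unadjusted p under 0.05, with 2321 and 2249.8 in fasted undeprived worms and 1679.8 and 1972 in fed undeprived worms.

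With the replicate number as a block in the same fit, 3 of the 33 members rose in fasted undeprived worms. In that fit 13.8% of all probe sets passed the threshold, and 48.4% of those were higher. The 3 members were rpt-2 (limma with block, adjusted p = 0.0417), rpn-2 (adjusted p = 0.0432) and rpn-11 (adjusted p = 0.0447). The 95% interval for rpn-2, whose second arrays exceeded the first by 0.62 on average, was 1.11 to 1.56-fold with the block and 0.76 to 2.29-fold without it. The 13.8% counts calls in both directions, while all 3 member calls were upward and 0 were downward. The matching share for upward calls is therefore only the 48.4% part of that 13.8%. Whether the members differ from it was not tested.

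**Figure D2:**
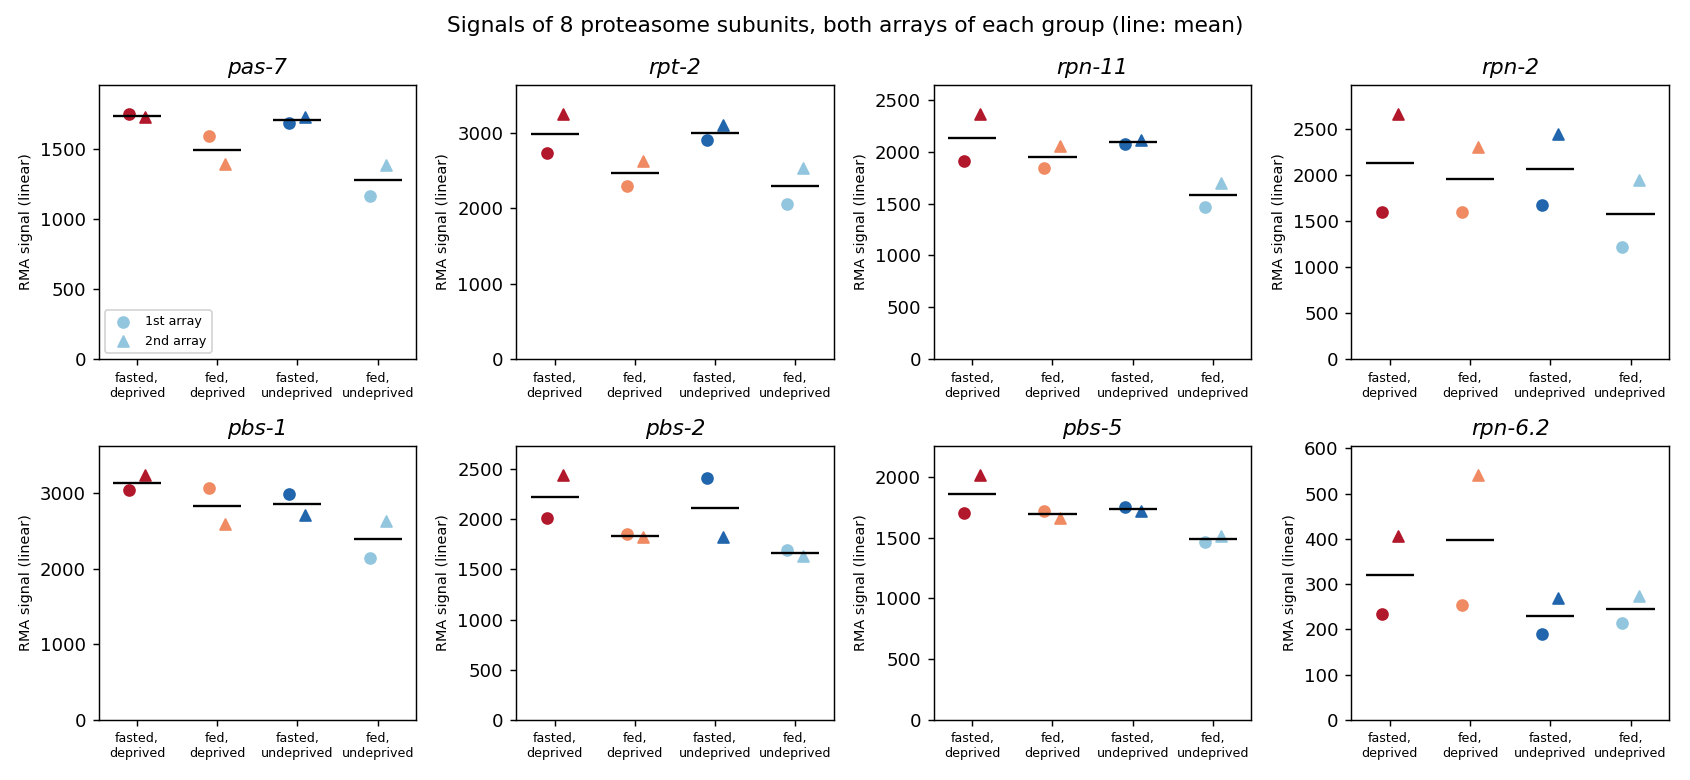
Linear RMA signal (y axis, starting at 0) of pas-7, rpt-2, rpn-11, rpn-2, pbs-1, pbs-2, pbs-5 and rpn-6.2 on both arrays of fasted deprived, fed deprived, fasted undeprived and fed undeprived worms (x axis). Points are arrays and lines are means of 2 arrays. The fasted undeprived points of pas-7, at 1680.3 and 1727, lie above the fed undeprived points at 1164 and 1382, while for rpn-2 and rpn-6.2 the 2 arrays of a group lie far apart.

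Fasting of worms deprived of cholesterol gave median differences nearer to 0. The estimate was above 0 for 26 of 33 members, against 45.6% of all probe sets and 56.8% of the bright ones. Median differences were 0.11 for the core and 0.05 for the cap, beside -0.02 for all probe sets and 0.05 for the bright ones. Without the second fasted deprived array the core median was 0.035 and the cap median -0.14, and without the first they were 0.15 and 0.26. Without the first fed deprived array the core median was 0.052 and the cap median -0.041, and without the second the cap median was 0.19. None of the 33 passed the threshold in limma, which 2.91% of all probe sets did. An unadjusted p under 0.05 was found for 0 members, against 8.85% of all probe sets higher and 6.78% lower. Of the 7516 bright probe sets, 1005 (13.4%) were higher, out of 1649 at that threshold in either direction. Arrays did not overlap for 7 members, all higher in fasted worms. Of all probe sets 21.5% were separated upward and 24.7% downward, and of the bright ones 29.3% and 19%.

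The 3 highest estimates belonged to rpt-2, pbs-2 and pas-7. rpt-2 had signals of 2732 and 3249 in fasted deprived worms, against 2294 and 2633 in fed deprived worms. For pbs-2 they were 2013 and 2443 in fasted deprived worms, against 1853 and 1819 in fed deprived worms. For pas-7 they were 1744 and 1725 in fasted deprived worms, against 1589 and 1388 in fed deprived worms. Each is separated without overlap, with differences of 0.28 ± 0.15, 0.27 ± 0.16 and 0.22 ± 0.12 and limma adjusted p-values of 0.432, 0.481 and 0.451 in that order.

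The other catalytic subunits overlapped between the groups. pbs-1 had 3044 and 3244 in fasted deprived worms, against 3068 and 2593 in fed deprived worms. pbs-5 had 1701 and 2015 in fasted deprived worms, against 1717 and 1665 in fed deprived worms. One fed array of each lay above the lower fasted array. The differences were 0.16 ± 0.14 and 0.13 ± 0.11.

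Of the cap subunits, only the ubiquitin receptor rpn-10 and rpt-2 were separated. rpn-10 gave 2237 and 2639 in fasted deprived worms, against 2119 and 2229.9 in fed deprived worms. rpn-11 gave 1911 and 2364 in fasted deprived worms, against 1847 and 2056 in fed deprived worms, which overlap. The difference was 0.16 ± 0.12 for rpn-10 and 0.13 ± 0.14 for rpn-11.

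The lowest estimates were those of rpn-6.2, rpt-6 and pbs-6. The signals of rpn-6.2 were 235 and 407 in fasted deprived worms, against 255 and 541 in fed deprived worms. rpt-6 had 286 and 414 in fasted deprived worms, against 324 and 449 in fed deprived worms. pbs-6 had 3038 and 3209 in fasted deprived worms, against 3185 and 3386 in fed deprived worms. All 3 overlap between the groups, with differences of -0.26 ± 0.39, -0.15 ± 0.29 and -0.07 ± 0.12. The 95% interval lay within 1.5-fold for 25 members and within 2-fold for 32.

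**Figure D3:**
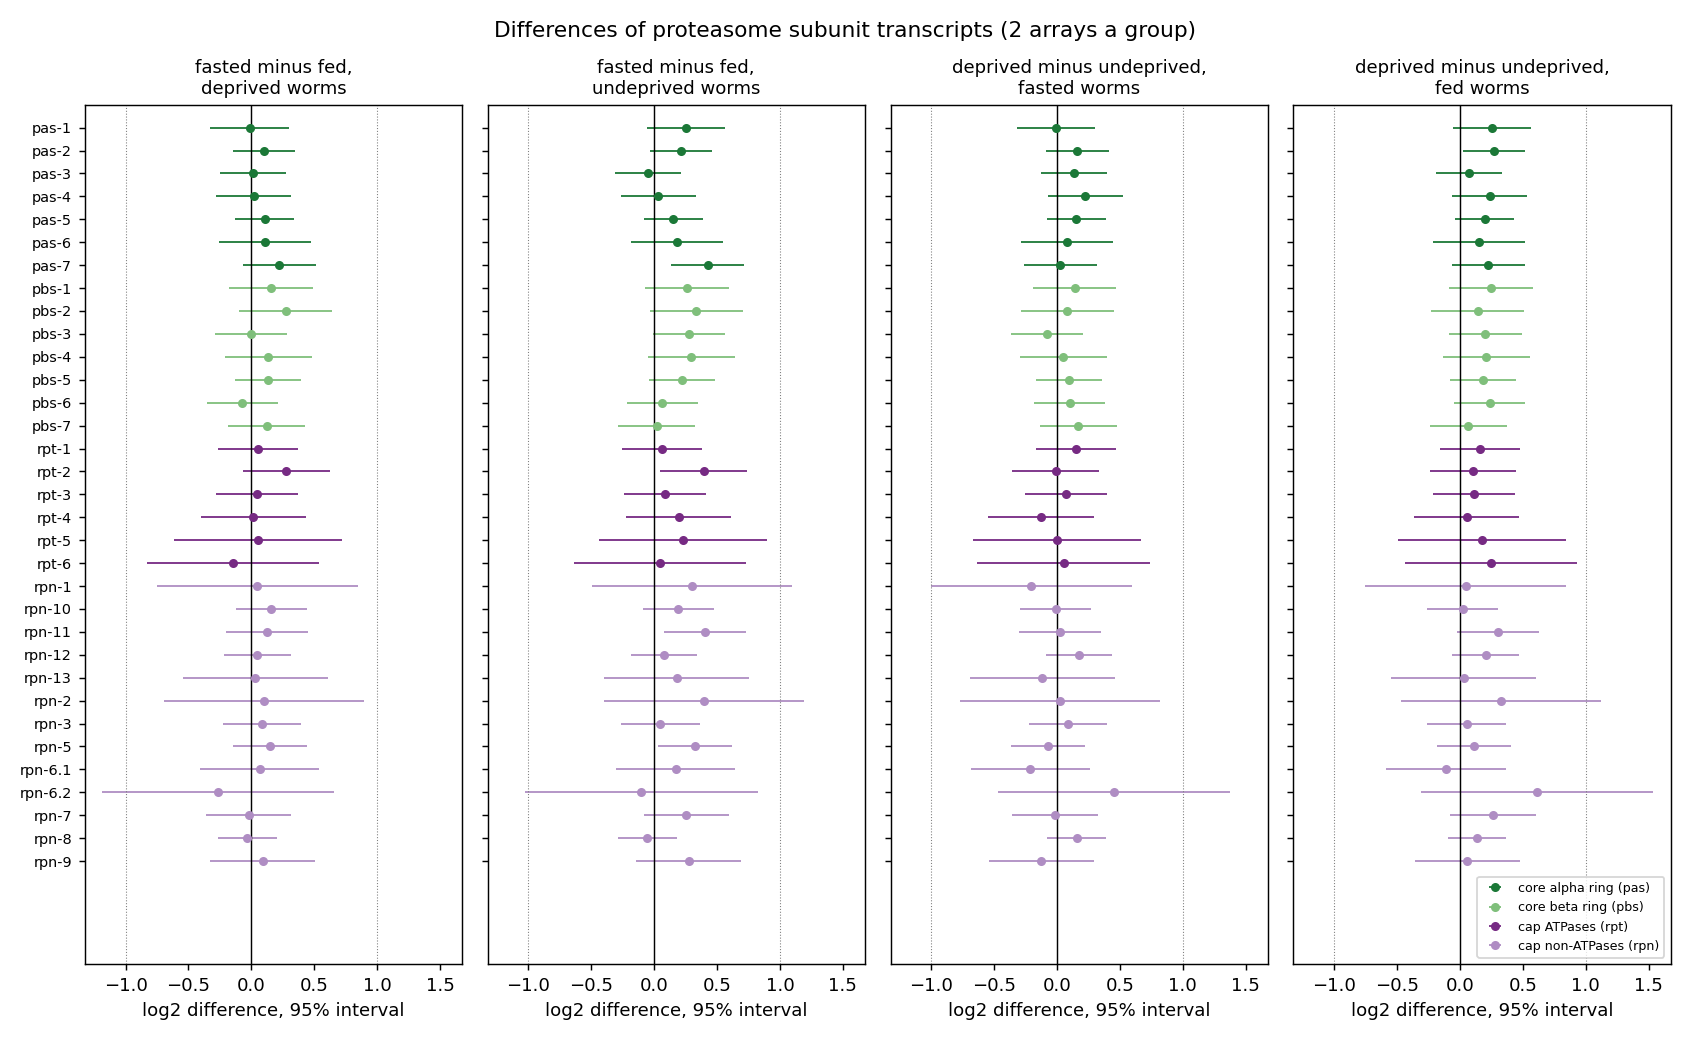
Log2 difference (x axis) with its 95% interval for each of the 33 members (y axis). Panels from left to right show fasted minus fed deprived, fasted minus fed undeprived, deprived minus undeprived fasted and deprived minus undeprived fed worms. Points are limma estimates from 2 arrays a group, and dotted lines mark 2-fold. Estimates lie mostly right of 0, at 26, 30, 22 and 32 of 33 members in that order. The widest intervals belong to rpn-6.2, rpn-1 and rpn-2.

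Deprivation of fed worms was compared with the same fed undeprived arrays that fasting with cholesterol uses, so the estimates of these comparisons are not independent. The estimate was above 0 for 32 of 33 members, against 60.5% of all probe sets. Median differences were 0.21 for the core and 0.11 for the cap, beside 0.05 for all probe sets and -0.0001 for the bright ones. Without the first fed undeprived array they were 0.11 and -0.02, and without the second 0.26 and 0.26. None passed the threshold in limma, which 1.21% of all probe sets did. One member, the alpha subunit pas-2, had an unadjusted p under 0.05, against 6.89% of all probe sets higher and 6.82% lower. Of the 7516 bright probe sets, 401 (5.34%) were higher, out of 1034 at that threshold in either direction.

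Fed deprived and fed undeprived arrays did not overlap for 10 of 14 core and 4 of 19 cap transcripts, all higher in deprived worms. Of all probe sets 29.9% were separated upward and 17.5% downward, and of the bright ones 21.5% and 22.9%. The difference between core and cap was not tested. pas-2, named after its value was seen, had 1913 and 1866 in fed deprived worms, against 1619.6 and 1515 in fed undeprived worms. Its difference was 0.27 ± 0.11, or 1.21-fold with a 95% interval of 1.02 to 1.43 (limma, adjusted p = 0.323).

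The largest estimate was that of rpn-6.2, with signals of 255 and 541 in fed deprived worms, against 215 and 273 in fed undeprived worms. The lower deprived value lies between the undeprived values, and the difference of 0.61 ± 0.39 had a 95% interval of 0.81 to 2.90-fold (limma, adjusted p = 0.549). rpn-2 followed with 0.32 ± 0.34, and its arrays overlap. rpn-11 had signals of 1847 and 2056 in fed deprived worms, against 1469 and 1698 in fed undeprived worms. These are separated, with a difference of 0.30 ± 0.14 (limma, adjusted p = 0.396).

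Among the catalytic subunits, pbs-2 and pbs-5 were separated and pbs-1 was not. The differences were 0.25 ± 0.14 for pbs-1, 0.14 ± 0.16 for pbs-2 and 0.18 ± 0.11 for pbs-5. The only estimate under 0 was that of rpn-6.1, with signals of 1724 and 2161 in fed deprived worms, against 1980.1 and 2190.2 in fed undeprived worms. The rpn-6.1 arrays overlap, with a difference of -0.11 ± 0.20. The ubiquitin receptors rpn-10 and rpn-13 were next, at 0.02 ± 0.12 and 0.03 ± 0.25, with overlapping arrays. The 95% interval lay within 1.5-fold for 25 members and within 2-fold for 31.

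Deprivation of fasted worms gave the core and cap medians nearest to 0 among the 4 simple comparisons. The estimate was above 0 for 22 of 33 members (12 of 14 core, 10 of 19 cap). Of all probe sets 40.5% were above 0, and of the bright ones 60.2%. Median differences were 0.10 for the core and 0.0021 for the cap, beside -0.05 for all probe sets and 0.05 for the bright ones. Without the second fasted deprived array they were 0.048 and -0.16, and without the first 0.18 and 0.17. Without the first fasted undeprived array the cap median was -0.055. None passed the threshold in limma, which 1.1% of all probe sets did. An unadjusted p under 0.05 was found for 0 members, against 6.66% of all probe sets higher and 7.38% lower. Of the 7516 bright probe sets, 748 (9.95%) were higher, out of 1151 at that threshold in either direction. Arrays were separated for 8 members, all higher in deprived worms. Of all probe sets 17.3% were separated upward and 27.6% downward, and of the bright ones 27.5% and 13.3%.

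The alpha subunit pas-4 had signals of 3208 and 3232 in fasted deprived worms, against 2691 and 2823 in fasted undeprived worms. The lid subunit rpn-12 had 2184 and 1957 in fasted deprived worms, against 1753 and 1908 in fasted undeprived worms. rpn-8 had 3263 and 3243 in fasted deprived worms, against 2838 and 3001 in fasted undeprived worms. All 3 are separated, and their differences were 0.22 ± 0.13, 0.18 ± 0.11 and 0.16 ± 0.10. rpn-6.2 again had the highest estimate, 0.45 ± 0.39, from 234.9 and 407 in fasted deprived worms, against 189.4 and 269.5 in fasted undeprived worms, which overlap.

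The lowest estimates were those of rpn-6.1, rpn-1 and rpt-4. rpn-6.1 had signals of 1649.5 and 2478 in fasted deprived worms, against 2257 and 2434 in fasted undeprived worms. rpn-1 had 1008 and 1859 in fasted deprived worms, against 1320.3 and 1888 in fasted undeprived worms. rpt-4 had 2893 and 3601 in fasted deprived worms, against 3267 and 3808 in fasted undeprived worms. All 3 overlap, at -0.21 ± 0.20, -0.21 ± 0.34 and -0.13 ± 0.18. The 95% interval lay within 1.5-fold for 26 members and within 2-fold for 31.

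The interaction asks whether the effect of fasting differed with cholesterol, and is the fasting difference of deprived worms minus that of undeprived worms. It was below 0 for 29 of 33 members and above 0 for 4. Of all probe sets 40.7% had a value above 0, and of the bright ones 61.1%. The median was -0.10 for the core and -0.16 for the cap, beside -0.06 for all probe sets and 0.07 for the bright ones. The cap median was 0.07 without the first fasted deprived array and -0.40 without the second. It was also above 0, by 0.035 or less, without the first fed undeprived, the second fasted undeprived or the second fed deprived array. None passed the threshold in limma, which 0.0976% of all probe sets did. An unadjusted p under 0.05 was found for 0 members, against 3.63% of all probe sets above 0 and 6.79% below. Of the 7516 bright probe sets, 315 (4.19%) were above 0, out of 459 at that threshold in either direction. The lowest adjusted p among members was 0.589. Only 15 of the 33 intervals lay within 1.5-fold, and for the other members the interval reached beyond that size.

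Averaged over both cholesterol states, fasting gave core and cap medians of 0.14 and 0.12. The cap median was 0.0047 without the second fasted deprived array and 0.24 without the first. Estimates were above 0 for 28 of 33 members, against 58.0% of all probe sets and 51.3% of the bright ones. None of the 33 passed the threshold in limma, against 10.6% of all probe sets. An unadjusted p under 0.05 was found for 5 members, all 5 higher, against 14.2% of all probe sets higher and 10.6% lower. Of the 7516 bright probe sets, 1544 (20.5%) were higher, out of 2881 at that threshold in either direction. Nearest to the adjusted threshold came pas-7, at 0.32 ± 0.09 (limma, adjusted p = 0.0584), and rpt-2 followed at 0.34 ± 0.10 (limma, adjusted p = 0.0899). In these 2 genes all 4 fasted arrays stood above all 4 fed arrays, as in 6.98% of all probe sets and 11.1% of the bright ones, while 5.94% and 10.1% were separated downward. pbs-2 (0.30 ± 0.11) and rpn-11 (0.27 ± 0.10) were the next highest.

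With the replicate block, 3 members rose in the average fasting comparison. In that fit 19.6% of all probe sets passed the threshold, and 53.4% of those were higher. The 3 members were rpt-2 (limma with block, adjusted p = 0.0152), pas-7 (adjusted p = 0.0357) and rpn-11 (adjusted p = 0.0453). With the arrays shifted to an equal median of bright probe sets, pas-7 (limma, adjusted p = 0.0394) and rpt-2 (adjusted p = 0.0447) rose. After that shift 12.1% of all probe sets passed the threshold, and 64.6% of those were higher.

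Averaged over both feeding states, deprivation gave core and cap medians of 0.13 and 0.09. The cap median was -0.011 without the first fed undeprived array and 0.17 without the second, and it was -0.0082 without the second fasted deprived array. All 14 core and 14 of 19 cap estimates were above 0, against 49.7% of all probe sets and 57.0% of the bright ones. None of the 33 passed the threshold in limma, against 4.1% of all probe sets. An unadjusted p under 0.05 was found for 4 members, all 4 higher, against 8.41% of all probe sets higher and 8.24% lower. Of the 7516 bright probe sets, 902 (12%) were higher, out of 1655 at that threshold in either direction. The 4 members were pas-4, rpn-12 and, named after their values were seen, pas-2 and pas-5. The 4 deprived arrays stood above the 4 undeprived arrays for pas-4, rpn-12 and rpn-8, as in 3.55% of all probe sets and 4.71% of the bright ones, while 2.49% and 2.13% were separated downward.

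The average deprivation difference of pas-4 was 0.23 ± 0.09 (limma, adjusted p = 0.252). With the replicate block, 1 member, rpn-6.2, rose in deprived worms (limma with block, 0.53 ± 0.12, adjusted p = 0.0310). In that fit 9.17% of all probe sets passed the threshold, and 47.1% of those were higher. Without the block the standard error of rpn-6.2 was 0.28 (limma, adjusted p = 0.423).

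**Figure D4:**
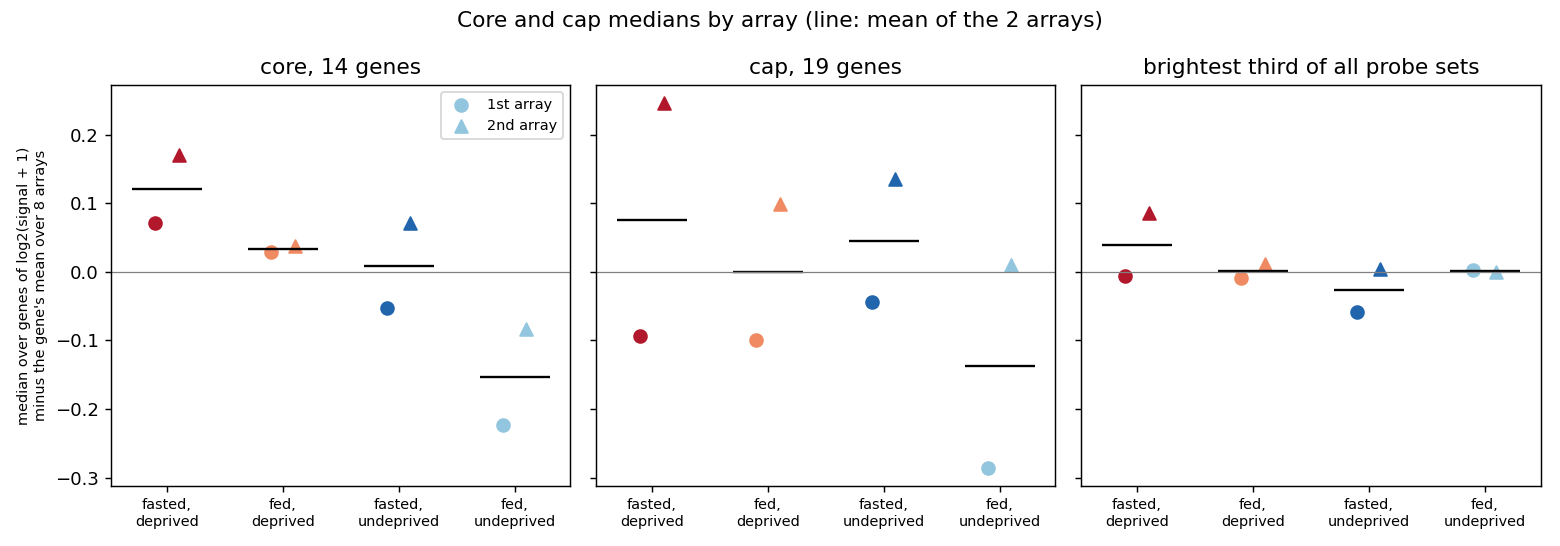
Median over genes of the deviation from each gene's mean (y axis, log2(signal + 1) units) on each array, for the 14 core genes, the 19 cap genes and the brightest probe sets of the array, in fasted deprived, fed deprived, fasted undeprived and fed undeprived worms (x axis). Points are arrays and lines are means of 2. The cap median is higher on the second array of every group, at -0.09 and 0.25 in fasted deprived worms and -0.29 and 0.01 in fed undeprived worms.

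The replicate arrays of a group differed in the same direction in most of the cap. The second array was above the first in all 4 groups for 22 of 33 members, against 14.4% of all probe sets and 24.3% of the bright ones, and below it in all 4 groups for 0 members, against 13.9% and 17.6%. The 22 were 6 of 14 core and 16 of 19 cap genes, with all 6 ATPases among them. The median of the second-minus-first difference was 0.08 for the core and 0.21 for the cap.

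This offset was largest for rpn-6.2 (0.68), rpn-2 (0.62), rpn-1 (0.61), rpt-6 (0.53), rpt-5 (0.50) and rpn-13 (0.42). In 6 members, all from the cap, the replicate SD was greater than the whole range of the 4 group means. Each group held 1 first and 1 second array, so an offset shared by all groups widens the standard errors and leaves the group differences unchanged. For rpn-2 in fasting with cholesterol the difference was 0.40 with and without the block, with standard errors of 0.11 and 0.34. Leaving out a single array breaks this balance, so that the offset enters the differences.

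Of the 33 members, 6 had more than 1 probe set, and these did not always give the same value. In fasting with cholesterol the brighter and the dimmer probe set gave 0.28 and 0.05 for pbs-3, 0.02 and 0.26 for pbs-7, and 0.19 and 0.37 for rpn-10. They gave 0.39 and 0.37 for rpt-2, 0.40 and 0.29 for rpn-2, and 0.06 and 0.17 for rpt-1. In deprivation of fed worms they gave 0.20 and -0.0022 for pbs-3, 0.07 and 0.24 for pbs-7, and 0.02 and 0.03 for rpn-10. There the values were 0.10 and 0.27 for rpt-2, 0.32 and 0.27 for rpn-2, and 0.16 and 0.28 for rpt-1. For 20 of the 33 members there were only probe sets whose names mark possible cross-hybridisation to related transcripts. Leaving out all such probe sets kept 13 members, of which 0 passed the threshold in any comparison. The genes pbs-7 and pas-4 neighbour each other with 4 protein-coding genes between them in the RefSeq order, and no other pair of members was as near.

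Genes that work with the proteasome in the wider ubiquitin and protein folding machinery were examined by list. Of 11 measured partners and regulators of the proteasome (a list that also took in the peptidase pcp-1), 0 passed the threshold in any of the 7 comparisons, with 0 to 3 at an unadjusted p under 0.05. The skn-1 gene, named after its values were seen, had estimates of 0.20 ± 0.38 for fasting with cholesterol and 0.27 ± 0.38 without it, neither past the threshold (limma, adjusted p = 0.782 and 0.805). The same count of 0 held for the ubiquitin-activating enzyme uba-1 and the 3 uev genes, which code for variants of ubiquitin-conjugating enzymes, with 0 to 1 of 4 at the unadjusted threshold. For 75 cytosolic ribosomal protein genes it was also 0, with 0 to 4 at the unadjusted threshold and medians from -0.01 to 0.10.

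In the other lists 3 genes passed, in the average fasting comparison, where 10.6% of all probe sets did, or in the average deprivation comparison, where 4.1% did. csn-4, a subunit of the COP9 signalosome, a complex related in structure to the proteasome lid, had signals of 663 and 1135 in fasted deprived, 489 and 674 in fed deprived, 993 and 918 in fasted undeprived and 382 and 533 in fed undeprived worms. All fasted arrays except the first fasted deprived one are above every fed array, and csn-4 rose with fasting on average by 0.84 ± 0.20 (limma, adjusted p = 0.0407), as the only 1 of 6 COP9 genes. cct-1, a subunit of the chaperonin that folds actin and tubulin, had 5004 and 4543 in fasted deprived, 3627 and 3434 in fed deprived, 3668 and 3929 in fasted undeprived and 3195 and 3500.5 in fed undeprived worms. Every fasted array is above every fed array, and cct-1 rose by 0.31 ± 0.08 on average (limma, adjusted p = 0.0469), as the only 1 of 8 chaperonin genes.

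chn-1, a ubiquitin ligase of the CDC-48 pathway, which extracts ubiquitinated proteins from complexes, had 988 and 899.9 in fasted deprived, 1013 and 1004 in fed deprived, 589 and 694 in fasted undeprived and 822 and 739 in fed undeprived worms. Every deprived array is above every undeprived array, and chn-1 rose with deprivation on average by 0.47 ± 0.09 (limma, adjusted p = 0.0321), as the only 1 of 14 genes of that list.

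Intestinal and muscle markers passed the threshold in comparisons where the proteasome transcripts did not. Of 15 intestinal markers, 6 fell and 1 rose with fasting in undeprived worms, where 5.16% of all probe sets passed. In deprived worms, where 2.91% of all probe sets passed, 6 of the 15 fell. The summed signal of the 15 was 11570.1 to 12658 in fasted deprived and 27582 to 28436 in fed deprived worms. It was 16314 to 18250.3 in fasted undeprived and 32105 to 33613 in fed undeprived worms. Of 15 body wall muscle markers, 2 and 3 fell with fasting in undeprived and deprived worms. Of 20 germline, 17 oocyte and 16 neuronal markers, 0 passed in either comparison, with medians of -0.33, -0.21 and 0.25 in undeprived and -0.12, -0.20 and 0.11 in deprived worms. In the average fasting comparison, where 10.6% of all probe sets passed, 10 intestinal and 7 muscle markers fell. There 1 intestinal, 1 germline and 2 neuronal markers rose, and 1 oocyte marker fell. No marker was listed at 0 on any array. With deprivation of fed worms, where 1.21% of all probe sets passed, 1 of 15 intestinal markers rose and no other marker passed. The medians were 0.24 for intestine, -0.22 for muscle and 0.26 for neurons. With deprivation of fasted worms, where 1.1% of all probe sets passed, 2 intestinal and 3 muscle markers fell and 1 of each rose. In the average deprivation comparison, where 4.1% of all probe sets passed, 4 muscle markers fell and 1 rose. There 1 intestinal marker fell and 2 rose, and 1 neuronal marker rose. The part of tissue composition in the proteasome values was not tested.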

How the data were processed

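Whole-worm RNA of 8 samples was hybridised to one-colour Affymetrix arrays, after labelling of 100 ng with biotin as cRNA. The authors deposited one intensity per probe set and array on a linear scale, and the submitters' processing notes name RMA (robust multi-array average), with no version or settings. RMA equalises the distributions of the arrays, so a change in total RNA would not be visible. The number of arrays limits the precision.

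Of 22625 probe sets, 77 controls were left out. The platform annotation gave 20766 of the rest 1 symbol, and all 33 members matched a symbol of the RefSeq table of WBcel235. Deposited intensities were analysed as log2(signal + 1), which understates changes of dim genes, in limma 3.58.1 (R 4.3.3) with lmFit and eBayes, 1 mean per group over all 8 arrays, 4 residual and 3.37 prior degrees of freedom, two-sided tests and Benjamini-Hochberg adjustment over all probe sets of each of 7 comparisons. The p-values measure the spread between these samples. The code was tested on simulated data. Figures used matplotlib 3.10.9 (Python 3.11.15).

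The members, lists and tests were chosen with earlier results of these data known. Members were described singly if they passed the threshold, were catalytic beta subunits, were among the 3 highest or 3 lowest in one of the 4 simple comparisons, or were rpn-1, rpn-2, rpn-6.1, rpn-6.2, rpn-8, rpn-10, rpn-11 or rpn-13. From other lists, up to 3 genes past the threshold were named.

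Replicate numbers come from the titles, and no label says that a number marks a shared day. The second-minus-first deviations of the 4 groups correlated at 0.218 to 0.530 in all 6 pairs of groups across probe sets. The main fit ignored this pairing, and it gave every value not marked as from an alternative. Fits with the number as a block were an alternative, printed where a call changes. With the block, members at an unadjusted p under 0.05 (limma) numbered 10 for fasting with cholesterol and 8 for deprivation of fed worms. They numbered 8 for average fasting, 7 for average deprivation and 1 or 0 elsewhere. Without the block these counts were 4, 1, 5, 4 and 0 in that order. The share of all probe sets at that threshold was not counted with the block, so these counts say nothing particular to the members. At the adjusted threshold the share of all probe sets also rose with the block. It went from 5.16% to 13.8% for fasting with cholesterol and from 1.21% to 4.38% for deprivation of fed worms. For average fasting it went from 10.6% to 19.6%, and for average deprivation from 4.1% to 9.17%. The other alternatives were cyclic loess, the shift to an equal median of bright probe sets (bright-set shift), dropping the 40% of probe sets with the lowest mean, leaving out probe sets prone to cross-hybridisation, the mean of a gene's probe sets, a pseudocount of 16, an intensity trend in eBayes and leaving out each array. Promoter and protein sequences were not analysed here.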

Additional observations from a re-analysis of the deposited data

How the results depend on the processing

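The number of members past the threshold was 0 in all 7 comparisons, and was also 0 without any single array, after cyclic loess, without dim or cross-hybridising probe sets, with a pseudocount of 16 and with an intensity trend. Leaving out 1 array could also lower the share of all probe sets called, to as little as 1.69% for fasting with cholesterol and 0.111% for deprivation in fed worms, so the 0 there says nothing about stability. With the replicate number as a block the number was 3 for fasting with cholesterol, 3 for average fasting, 1 for average deprivation and 0 for the other comparisons. With the bright-set shift it was 2 for average fasting and 0 elsewhere. The bright-set shift gave core medians of 0.31 for fasting with cholesterol and 0.19 for average fasting. Cyclic loess gave core medians of 0.016 for deprivation in fasted worms, 0.062 for average deprivation and 0.056 for fasting without cholesterol. Cap medians after cyclic loess were 0.0033 for fasting without cholesterol, 0.064 and -0.079 for deprivation in fed and in fasted worms, and 0.012 for average deprivation. The bright-set shift gave a cap median of -0.044 for deprivation in fasted worms. Without probe sets prone to cross-hybridisation the cap medians were 0.08 for fasting with cholesterol, 0.066 for average fasting, 0.23 and 0.079 for deprivation in fed and in fasted worms, 0.15 for average deprivation and -0.042 for the interaction.

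Leaving out 1 array at a time gave core medians of 0.13 to 0.24 for fasting with cholesterol, with the lowest without the first fed undeprived array. The same array gave the lowest core median for deprivation in fed worms, whose range was 0.11 to 0.26. The core range was 0.048 to 0.18 for deprivation in fasted worms and 0.11 to 0.19 for average deprivation. The cap median of fasting without cholesterol ran from -0.14 without the second fasted deprived array to 0.26 without the first. The cap median also ran from 0.03 to 0.34 for fasting with cholesterol, from -0.02 to 0.26 for deprivation in fed worms, from -0.16 to 0.17 for deprivation in fasted worms, from -0.40 to 0.07 for the interaction, from 0.0047 to 0.24 for average fasting and from -0.011 to 0.17 for average deprivation. The core median of fasting without cholesterol ran from 0.035 to 0.15, and that of the interaction from -0.19 to -0.041. Of 1904 values of named members under the alternatives, 170 had the opposite sign without a call, and 9 were called. The fits without 1 array had no block, and they compare unequal numbers of first and second arrays. The second-minus-first offset, with a median of 0.08 for the core and 0.21 for the cap, therefore enters their medians. How much of each shift came from this offset was not tested, nor was any other cause. Precision was limited by the 2 arrays per group.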
